A study of Mus musculus with 19 samples.

Results

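A set of 10 genes that mark oligodendrocyte precursors and newly formed oligodendrocytes, Pdgfra, Cspg4, Sox10, Olig1, Olig2, Gpr17, Bcas1, Enpp6, Vcan and Neu4, were followed in bulk RNA of the mouse hippocampal CA1 region. They were chosen by name, as the rows whose Ensembl identifier carries these symbols in GENCODE M21, and make up 10 of the 48709 genes in the files. All 10 were measured in 19 libraries of polyadenylated RNA from microdissected CA1 of mice aged 7 months. The first group, WT control (n = 6), were wild-type littermates. The second, APP control (n = 6), were APPPS1-21 mice, which carry a mutant human APP transgene under a neuronal Thy1 promoter and accumulate amyloid plaques. The third, APP anti-miR-mix (n = 7), were APPPS1-21 mice given inhibitors of 3 microRNAs (miR-148a-3p, miR-146a-5p, miR-181a-5p). All 3 groups received lipid nanoparticles in the dorsal hippocampus. In both control groups these held a control oligonucleotide, as the study's methods describe. The titles of the wild-type libraries also name the mixture. The sex of the sequenced animals and any pooling of animals were not given in the sources used here, and p-values measure the spread between these libraries.

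Oligodendrocyte precursors are dividing glial cells spread through the adult gray and white matter. They are kept in the precursor state by platelet-derived growth factor signaling through PDGFRA and, when they commit, switch off PDGFRA and the NG2 proteoglycan, pass through a short stage marked by GPR17, BCAS1 and ENPP6, and then make myelin. The transcription factors OLIG1, OLIG2 and SOX10 are present from the precursor to the mature cell. MicroRNAs repress messenger RNAs by pairing of their bases 2 to 8, the seed, with complementary sites that lie mostly in the 3′ UTR. The comparison of APP control against WT control, called the amyloid comparison below, asks how these genes stand in mice with amyloid. That of APP anti-miR-mix against APP control, the inhibitor comparison, asks how they stand when the 3 microRNAs are inhibited. APP anti-miR-mix against WT control, the combined comparison, sets the treated mice beside the wild type.

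All 10 genes were detected in every library, with a lowest raw count of 149 (Enpp6), and all passed the filter on low counts (a minimum of 5 in 50% of the libraries). Raw counts summed to between 19362343 and 37018917 per library. The genotype labels were checked first on Thy1 and App, 2 genes to which transgene reads can contribute. Thy1 spanned 18117 to 20734 normalized counts in WT control and 36153 to 62866 in APP control, and both genes rose in either APP group against WT control. Summed amyloid-associated microglial markers spanned 3381 to 6105 normalized counts in WT control, 6076 to 21089 in APP control and 12064 to 21293 in APP anti-miR-mix, and 8 of 8 of these genes rose in both comparisons with WT control. Summed choroid plexus markers, genes of a neighboring tissue, were highest in WT control 5 (2419) and APP anti-miR-mix 6 (1697). Among the other libraries of WT control they began at 496, and in APP control they stayed between 538 and 717.

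The sequences of the microRNAs and of the inhibitors show which sites in the 10 genes could be touched by the treatment. The mature microRNAs are those of RefSeq on GRCm38.p6, with the seed in capitals, and the 3 seeds differ from each other.
miR-181a-5p: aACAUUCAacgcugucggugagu
miR-146a-5p: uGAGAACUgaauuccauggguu
miR-148a-3p: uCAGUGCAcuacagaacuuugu
miR-181a-5p is encoded at 2 loci, chr1:137966468-137966490 and chr2:38852741-38852763, both on the plus strand. miR-146a-5p lies at chr11:43374435-43374456 and miR-148a-3p at chr6:51269829-51269850, both on the minus strand. The inhibitors of the study, written 5′ to 3′ with the bases that pair with the seed in capitals, were complementary to their microRNA throughout.
inhibitor of miR-181a-5p: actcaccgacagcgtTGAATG
inhibitor of miR-146a-5p: acccatggaattcAGTTCTC
inhibitor of miR-148a-3p: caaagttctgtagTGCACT
The inhibitor of miR-146a-5p covered 7 of the 7 seed bases, and the other 2 inhibitors covered 6.

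A complement of at least 1 of the 3 seeds (TGAATGT for miR-181a-5p, AGTTCTC for miR-146a-5p, TGCACTG for miR-148a-3p) was found on the transcribed strand of the 3′ UTR in 7 of the 10 genes. Of 15385 tested genes with an annotated 3′ UTR, 31.7% held such a match, and of the 6831 whose 3′ UTR was as long as those of these genes (926 to 3992 bases) 45.9% did. A miR-181a-5p match stood in 6 of the genes (Olig2, Sox10, Pdgfra, Vcan, Gpr17 and Enpp6), beside 16.4% of all genes and 23.3% of those with a 3′ UTR of like length. Vcan, Gpr17 and Enpp6 also held a miR-146a-5p match, Cspg4 held a miR-148a-3p match, and no match was in the annotated 3′ UTR of Olig1, Bcas1 or Neu4. The matches are shown in capitals within 30 bases of the transcribed strand of GRCm38, for the 6 genes whose sequence is given here.
Olig2, miR-181a-5p, chr16:91227974-91228003 (+): taacaaatctgTGAATGTtccttttcagag
Sox10, miR-181a-5p, chr15:79155389-79155418 (-): ccctcttcaccTGAATGTgggaactggtcg
Pdgfra, miR-181a-5p, chr5:75197981-75198010 (+): tgttgcactttTGAATGTccaaaatttata
Vcan, miR-181a-5p, chr13:89656268-89656297 (-): tataaaaaattTGAATGTtcatgtatgaat
Enpp6, miR-181a-5p, chr8:47096478-47096507 (+): tcacatttgtaTGAATGTcaagagatttcc
Vcan, miR-146a-5p, chr13:89656971-89657000 (-): ctaatttctttAGTTCTCtcaatgcctcca
Enpp6, miR-146a-5p, chr8:47093435-47093464 (+): cttttctacatAGTTCTCtgctttgtttat
Cspg4, miR-148a-3p, chr9:56899615-56899644 (+): gtttgagtttgTGCACTGggctcctatccg
A match is a description of the sequence and not evidence of binding.

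In WT control the genes ran over a wide range of levels. On the scale of CPM per kilobase of exon, where CPM scales each library to a common total, Olig1 stood at 50.8 ± 7.61 (SD, n = 6), Bcas1 at 48.3 ± 10.6 and Sox10 at 21.4 ± 4.48. Olig2 (11.7 ± 1.06) and Gpr17 (10.6 ± 1.12) followed, then Pdgfra at 6.94 ± 0.275. Neu4 (3.12 ± 0.161), Cspg4 (2.85 ± 0.263), Vcan (2.30 ± 0.109) and Enpp6 (2.22 ± 0.552) were the lowest. The ranges of the 6 libraries overlapped between neighbors in this order for Olig1 and Bcas1, for Olig2 and Gpr17, and along the run from Neu4 to Enpp6, so these orders did not stand out from the spread. The steps from Bcas1 to Sox10, Sox10 to Olig2, Gpr17 to Pdgfra and Pdgfra to Neu4 had no overlap. With the length of the longest annotated transcript in place of all exons, Bcas1 (61.8) came above Olig1, Cspg4 (4.18) above Neu4 and Enpp6 (2.87) above Vcan (2.68).

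**Figure D1:**
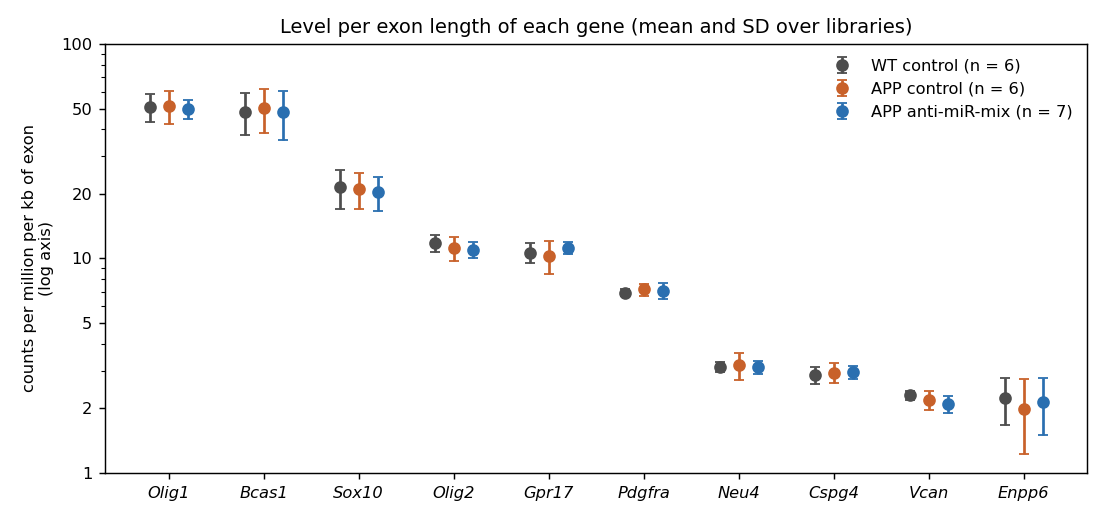
Level of each gene in CPM per kilobase of exon (log axis); points are group means and whiskers the SD over 6, 6 and 7 libraries. In each gene the whiskers of the 3 groups overlap, and in WT control the means run from 50.8 for Olig1 to 2.22 for Enpp6.

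None of the 10 genes passed the test in any of the 3 comparisons. In the amyloid comparison, 0 of 10 were called at an adjusted p under 0.05 (DESeq2 Wald test with Benjamini-Hochberg adjustment over all genes), where 5.00% of all genes were. In the inhibitor comparison, 0 of 10 were called, and the same share of all genes was 0%, with 2.86% of genes, and none of the 10, at an unadjusted p under 0.05 in DESeq2 and no gene called by edgeR's quasi-likelihood test. In the combined comparison, 0 of 10 were called beside 9.51% of all genes. In edgeR's quasi-likelihood test none of the 10 passed either, beside 3.22% of all genes in the amyloid and 6.06% in the combined comparison. In counts simulated for the amyloid comparison, the share of false calls was above the nominal level in DESeq2 and below it in edgeR. The 3 comparisons share control samples. The ranges of the groups overlapped for all 10 genes in every comparison, where 1.57%, 0.0207% and 3.42% of genes in turn had ranges that did not. The log2 fold changes spanned -0.19 (Enpp6) to 0.02 (Bcas1) with a median of -0.04 in the amyloid comparison, -0.07 (Bcas1) to 0.13 (Gpr17) with a median of -0.03 in the inhibitor comparison, and -0.17 (Vcan) to 0.04 (Gpr17) with a median of -0.05 in the combined comparison. The medians of all genes tested were -0.01, -0.0015 and -0.02. In all 3 comparisons some values turned on single libraries. In the amyloid comparison without APP control 5, the log2 fold change was 0.13 for Bcas1, 0.06 for Olig1, 0.02 for Sox10, 0.0042 for Gpr17 and -0.05 for Olig2. In the inhibitor comparison without that library, it was -0.18 for Bcas1, -0.13 for Sox10, -0.12 for Olig1 and -0.08 for Olig2. Without APP anti-miR-mix 7 the inhibitor comparison gave 0.03 for Bcas1, 0.02 for Sox10 and -0.01 for Olig1, and the combined comparison 0.05 for Bcas1, -0.03 for Sox10 and 0.0059 for Enpp6. None of the 10 was called in any of these fits. In bulk tissue, fewer cells of a type and less RNA per cell cannot be told apart.

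**Figure D2:**
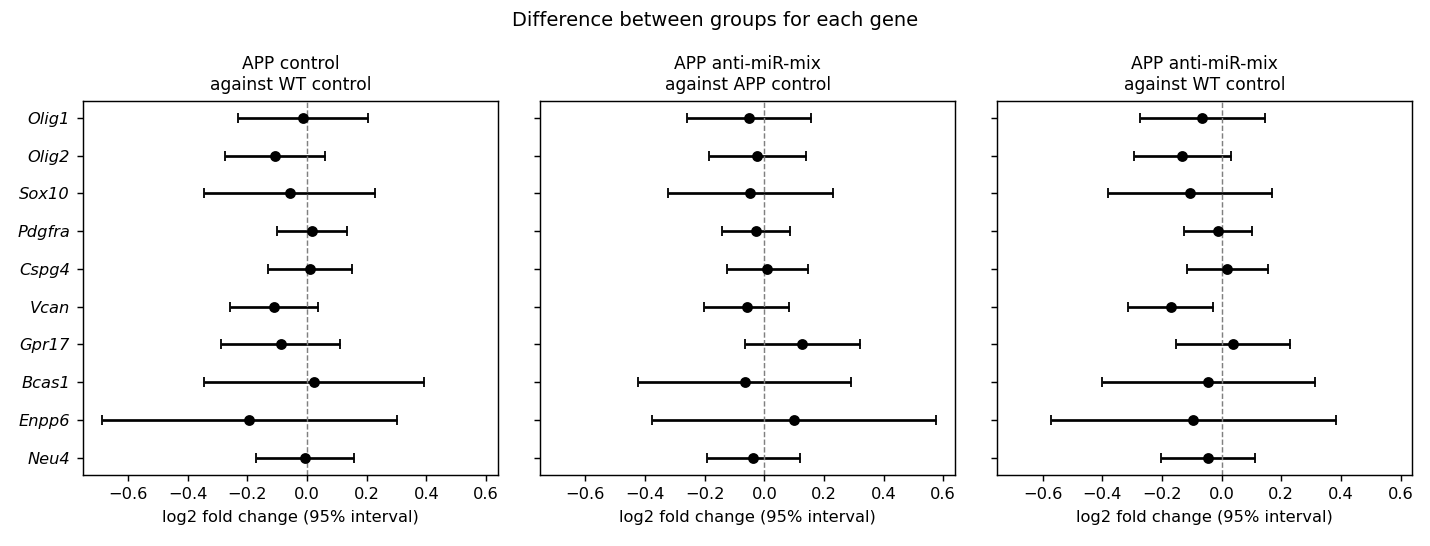
Log2 fold change of each gene with its 95% interval in the 3 comparisons; positive values mean a higher level in the group named first. In 29 of the 30 combinations of gene and comparison the interval includes 0, the exception being Vcan in the combined comparison, and the widest intervals are those of Enpp6.

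The means of the lineage factors differed between groups by less than the SD within either group, except for Olig2 in the combined comparison. OLIG1 and OLIG2 are basic helix-loop-helix factors whose genes lie side by side (Olig1 at chr16:91269772-91271933, Olig2 at chr16:91225457-91228677), and SOX10 (chr15:79154908-79165240) is the HMG-box factor that drives myelin genes together with them. Olig1 had from 2732 to 3834 normalized counts (median 3111) in WT control, 2383 to 3965 (3144) in APP control and 2586 to 3517 (3192) in APP anti-miR-mix. The lowest library of each group was WT control 4, APP control 5 and APP anti-miR-mix 7, and the groups lay over each other. Its log2 fold change in the amyloid comparison was -0.01 (SE 0.11), with a 95% interval from 14.8% lower to 15.1% higher, and that in the inhibitor comparison was -0.05 (SE 0.11). Olig2 spanned 797 to 957 (median 873) in WT control, 644 to 931 (805) in APP control and 696 to 891 (827) in APP anti-miR-mix. The same 3 libraries were again the lowest of their groups. Its fold change had an interval from 17.4% lower to 4.36% higher in the amyloid comparison, and its log2 fold change one from -0.19 to 0.14 in the inhibitor comparison. In the combined comparison its log2 fold change was -0.13 (SE 0.08, adjusted p 0.399 in DESeq2), and -0.18 to -0.10 over the 29 alternatives. The mean of Olig2 was 800 ± 70.3 (SD) in APP anti-miR-mix and 878 ± 65.8 in WT control. Of the 7 APP anti-miR-mix libraries, 1 lay above the median of WT control. Sox10 was the most variable of the 3 genes, with 1572 to 2406 (median 1752) in WT control, 1329 to 2331 (1857) in APP control and 1243 to 2118 (1848) in APP anti-miR-mix. Its log2 fold changes were -0.06 (SE 0.15), -0.05 (SE 0.14) and -0.11 (SE 0.14) in the order of the comparisons above, with adjusted p from DESeq2 of 0.95, 1.00 and 0.77. Over the 29 alternatives these values ran from -0.14 (without APP control 2) to 0.02 (without APP control 5) in the amyloid comparison, and from -0.18 to -0.01 in the combined comparison. Exons of Olig1 overlap those of Gm15966 on the other strand over 157 bases, and with a library kit that does not mark strand these reads cannot be told apart.

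The surface and matrix genes of the precursor were the steadiest of the 10. PDGFRA is the receptor for the mitogen PDGF-A, CSPG4 is the NG2 proteoglycan on the precursor surface, and VCAN (versican) is a chondroitin sulfate proteoglycan of the extracellular matrix. Pdgfra (chr5:75152292-75198215) spanned 1946 to 2196 normalized counts (median 2045) in WT control, 1921 to 2275 (2083) in APP control and 1876 to 2418 (1990) in APP anti-miR-mix. The groups overlapped throughout, with 1 high library in APP anti-miR-mix. The log2 fold change in the amyloid comparison was 0.02 (SE 0.06) and excluded a level more than 6.86% lower or 9.74% higher at 95%. In the inhibitor comparison it was -0.03 (SE 0.06), with an interval from 9.40% lower to 6.07% higher. It was -0.08 (SE 0.05) without APP anti-miR-mix 7, the high library, and -0.00059 (SE 0.06) without APP control 5. Cspg4 (chr9:56865033-56899870) spanned 867 to 1085 (median 1013), 908 to 1162 (962) and 928 to 1113 (993) in WT control, APP control and APP anti-miR-mix. Its log2 fold changes, 0.0085 (SE 0.07) and 0.01 (SE 0.07) in the first 2 comparisons, were less than their errors, with bounds of 8.76% lower and 10.9% higher in the first. Other cells also use these genes: pericytes carry CSPG4 and fibroblasts of the meninges carry PDGFRA and VCAN. Summed pericyte markers ran from 4895 to 5633 in WT control, 5089 to 6745 in APP control and 5329 to 6659 in APP anti-miR-mix, and summed fibroblast markers from 1923 to 4943, 2588 to 5992 and 2651 to 6701. No pericyte or fibroblast marker passed in the amyloid comparison, 1 of 7 (Anpep) and 3 of 7 (Col1a1, Col1a2 and Igf2) rose in the combined comparison in DESeq2, and none of the markers was at 0 in any library. In edgeR the adjusted p of Anpep, Col1a1, Col1a2 and Igf2 was 0.0545 to 0.0719. Their part in the values of Pdgfra, Cspg4 and Vcan was not tested.

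Vcan (chr13:89655312-89742509) came nearest to a difference. It spanned 906 to 1029 normalized counts (median 997) in WT control, 788 to 1025 (890.4) in APP control and 721 to 957 (904) in APP anti-miR-mix. All 7 APP anti-miR-mix libraries lay below the median of WT control, but the highest of them was above the lowest of WT control. The log2 fold change in the combined comparison was -0.17 (SE 0.07), with a 95% interval from 0.805-fold to 0.981-fold, an unadjusted p of 0.0195 and an adjusted p of 0.133 (DESeq2). It was the only gene of the 10 with an unadjusted p under 0.05 in any comparison, where 19.4% of all genes had one in this comparison. With the adjustment number of the deposited table (1 to 5 per library, of unstated meaning) as a factor, the log2 fold change was -0.19 and the adjusted p in DESeq2 0.0499, and with the same factor in edgeR the adjusted p was 0.112. With the replicate number as a block in DESeq2 the log2 fold change was -0.16 (SE 0.06, adjusted p 0.0539). In the amyloid comparison Vcan differed by -0.11 (SE 0.08, adjusted p 0.583 in DESeq2), and in the inhibitor comparison by -0.06 (SE 0.07). Over the 29 alternatives these values ran from -0.15 to -0.07 and from -0.10 to -0.02. Without APP control 5 the value was -0.15 in the amyloid and -0.02 in the inhibitor comparison.

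**Figure D3:**
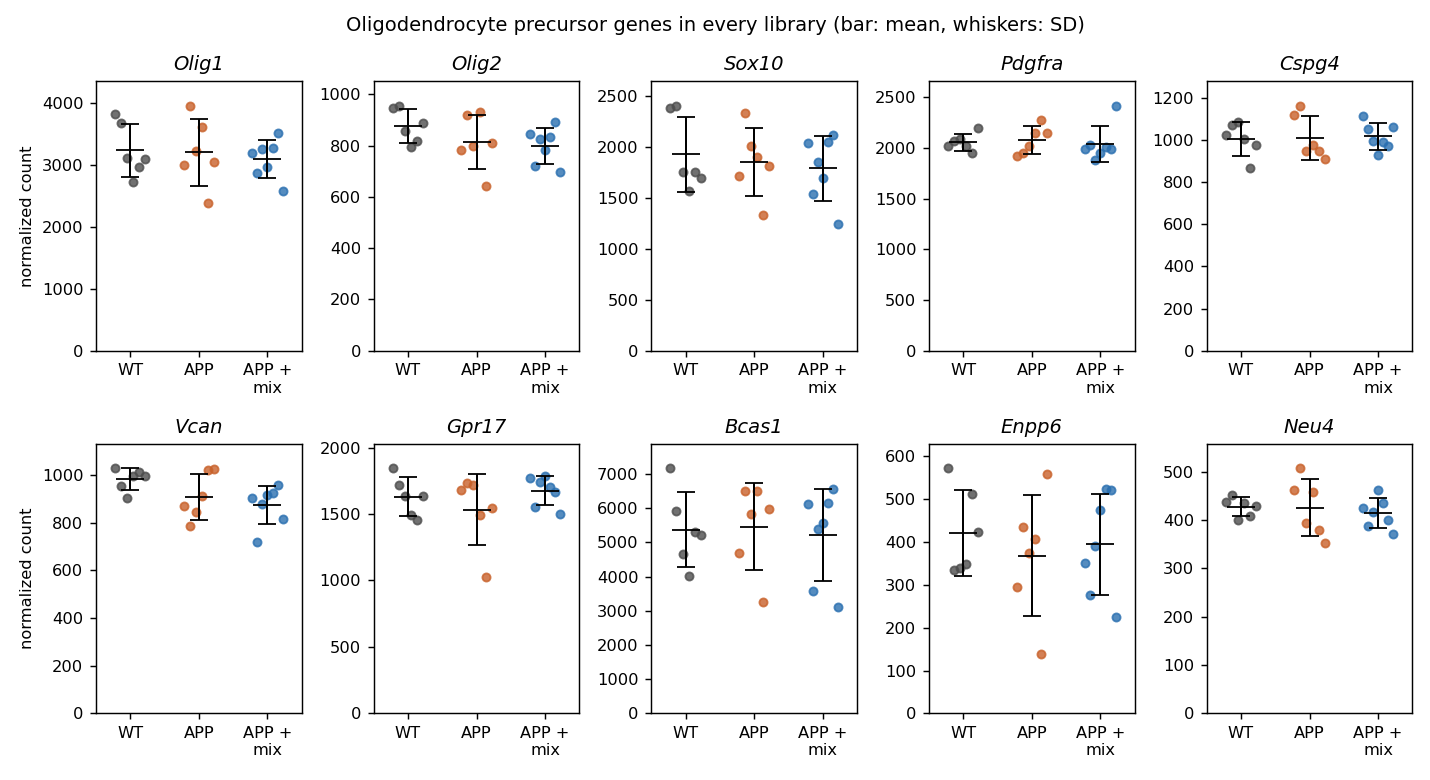
Normalized counts of each gene in every library (points) with the mean (bar) and SD (whiskers), in groups of 6 (WT), 6 (APP) and 7 (APP + mix) libraries. The 3 groups overlap in every panel, Pdgfra, Neu4, Cspg4 and Vcan are tight, and Bcas1 and Enpp6 spread widely within each group.

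Among the genes of committed and newly formed cells, the range of the libraries within each group was wider than any difference between group means. GPR17 is a G protein-coupled receptor of committed precursors, BCAS1 is a protein of early myelinating oligodendrocytes, ENPP6 is a choline-specific phosphodiesterase of newly forming oligodendrocytes, and NEU4 is a sialidase. Gpr17 (chr18:31942997-31949636) spanned 1458 to 1844 normalized counts (median 1637) in WT control, 1026 to 1735 (1616) in APP control and 1503 to 1787 (1705) in APP anti-miR-mix. Its lowest value, 1026 in APP control 5, stood apart from the other libraries of its group, which began at 1494. The log2 fold change in the inhibitor comparison was 0.13 (SE 0.10), the highest of the 10, and it was 0.03 without APP control 5. Bcas1 (chr2:170346991-170427845) spanned 4022 to 7172 (median 5259), 3265 to 6521 (5901) and 3127 to 6553 (5578) in WT control, APP control and APP anti-miR-mix. The highest library of each group had up to 2.10 times the count of the lowest, while the group means, 5379 ± 1086, 5463 ± 1266 and 5218 ± 1333 (SD), were close. The fold change in the amyloid comparison had an interval from 21.4% lower to 31.2% higher, and its log2 value was 0.02, and 0.13 (SE 0.18) without APP control 5. Enpp6 (chr8:46986887-47096762) spanned 334 to 572 (median 385), 139.6 to 559 (391) and 225 to 524 (391), with the lowest values again in APP control 5 and APP anti-miR-mix 7. Its log2 fold change in the amyloid comparison was -0.19 (SE 0.25), with an interval from 38.0% lower to 23.3% higher, and it was -0.03 without APP control 5. In the inhibitor comparison it was 0.10 (SE 0.24), and -0.07 without APP control 5. Neu4 (chr1:94020451-94028334) spanned 399.9 to 452 (median 433), 353 to 507 (426) and 371 to 463 (417). It differed by -0.0075 (SE 0.08) and -0.04 (SE 0.08) on the log2 scale in the first 2 comparisons, with bounds of 11.2% lower and 11.4% higher in the first. Exons of Gpr17 overlap those of Lims2 over 188 bases and exons of Bcas1 those of Bcas1os1 and Bcas1os2 over 474 bases, all on the other strand. Exons of Pdgfra overlap those of Gm42802, Gm42803 and Mir7025 over 652 bases.

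Set beside the seed matches, the genes did not separate in the inhibitor comparison. Of the 7 genes with a match to any of the 3 seeds, 3 had a positive and 4 a negative log2 fold change, from -0.06 to 0.13 with a median of -0.02. The 3 genes without a match (Olig1, Bcas1 and Neu4) had values from -0.07 to -0.04. The 6 genes with a miR-181a-5p match had a median of -0.03. The 3 with a miR-146a-5p match had 0.10 (Enpp6), 0.13 (Gpr17) and -0.06 (Vcan), and none of these passed the test.

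The 10 genes also differed in how much they varied between libraries of the same group. The SD of log2 values around the group means was 0.10 for Pdgfra, 0.12 for Cspg4, 0.13 for Vcan and 0.14 for Neu4. It was 0.15 for Olig2, 0.18 for Gpr17, 0.20 for Olig1 and 0.27 for Sox10, and it reached 0.37 for Bcas1 and 0.52 for Enpp6. Over the 9492 genes tested with a mean at or above that of the lowest of the 10, the median of this SD was 0.12 and the upper quartile 0.17. On this measure 8 of the genes were more variable than that median and the 2 steadiest, Pdgfra and Cspg4, less. Within groups, 7 of the 10 genes were lowest of their group in APP anti-miR-mix 7 and 6 in APP control 5, while Pdgfra was highest there in both.

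The lineage factors and the genes of the later stages other than Neu4 varied together between libraries. Over the 19 libraries, with the group means removed, Pearson's r between Olig1 and Olig2 was 0.96 (Spearman's rho 0.95), between Olig1 and Sox10 0.93 (rho 0.93) and between Sox10 and Bcas1 0.91 (rho 0.89). The permutation p of r was 1e-05 for each of these pairs, the smallest that 100000 permutations within groups can give, and 9e-05 after adjustment over the 45 pairs. Without the 2 libraries farthest from the median of the first gene r was 0.94, 0.92 and 0.84, and within the adjustment number it was 0.96, 0.93 and 0.95. Of the 45 pairs, 17 had an adjusted p of r under 0.05, of which 14 were positive, and 10, all of them positive and all among Olig1, Olig2, Sox10, Bcas1, Enpp6 and Gpr17, passed for both r and rho. The most negative pair was Cspg4 and Vcan, with r = -0.61 (adjusted permutation p 0.0294) and rho = -0.59 (adjusted permutation p 0.0628), and r = -0.50 without the 2 farthest libraries. Pdgfra against Sox10 had r = -0.59 and rho = -0.41, but r = -0.17 without the 2 farthest libraries, so that relation rests on them. Cspg4 and Vcan, both precursor proteoglycans, had r = -0.06 and 0.09 with Pdgfra over the 19 libraries, but these values differed by group and setting. In WT control, APP control and APP anti-miR-mix r with Pdgfra was 0.44, -0.77 and 0.43 for Cspg4 and -0.35, 0.85 and -0.39 for Vcan. Within the adjustment number it was 0.53 for Cspg4 and -0.26 for Vcan.

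**Figure D4:**
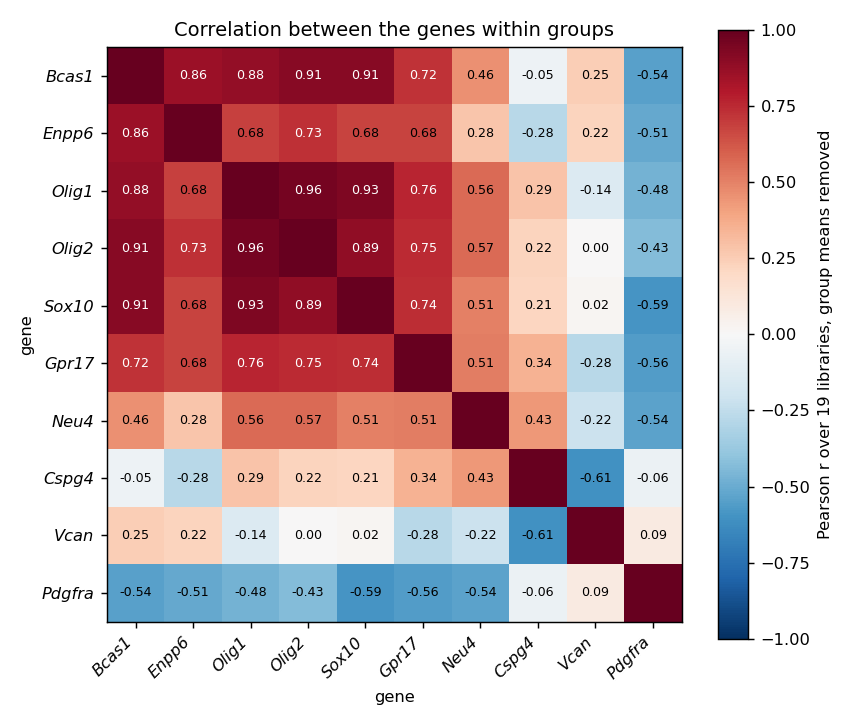
Pearson's r for each pair of the 10 genes over 19 libraries, computed on log2 values with the group means removed; red is positive and blue negative. Bcas1, Enpp6, Olig1, Olig2, Sox10 and Gpr17 form a block with r from 0.68 to 0.96, and Pdgfra is negative with each of them. Without the 2 libraries farthest from the median of 1 gene of the pair, r of Pdgfra with these genes ran from -0.29 (Olig1) to 0.09 (Olig2).

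The same block followed the genes of mature myelin. The mean log2 count of 11 myelin genes (Mbp, Mog, Mag, Mobp, Cnp, Opalin, Ugt8a, Mal, Ermn, Aspa and Cldn11) varied between libraries of each group, and their sum ran from 131158 to 227461 normalized counts in WT control, 133508 to 220616 in APP control and 104253 to 215746 in APP anti-miR-mix. The lowest libraries were WT control 4, APP control 5 and APP anti-miR-mix 7, those lowest for the lineage factors. With the group means removed, Bcas1 had r = 0.97 (rho 0.94) with the myelin mean, Enpp6 0.89 (0.86), Sox10 0.87 (0.84), Olig2 0.87 (0.82) and Olig1 0.84 (0.78). The adjusted permutation p of r over the 10 genes was at most 0.00012 for these 5, and without the 2 libraries farthest from the median r stayed between 0.73 and 0.95. Gpr17 had r = 0.68 (adjusted permutation p 0.00923) but rho = 0.46 (adjusted permutation p 0.0881), and r = 0.39 without those 2 libraries. Neu4 (0.34), Vcan (0.25), Cspg4 (-0.16) and Pdgfra (-0.48) did not pass, and for Pdgfra r was 0.05 without the 2 libraries. None of the 11 myelin genes was called in any of the 3 comparisons, and their median log2 fold changes were -0.02, -0.10 and -0.14. How much white matter each dissection held was not measured, and its part in these relations was not tested.

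**Figure D5:**
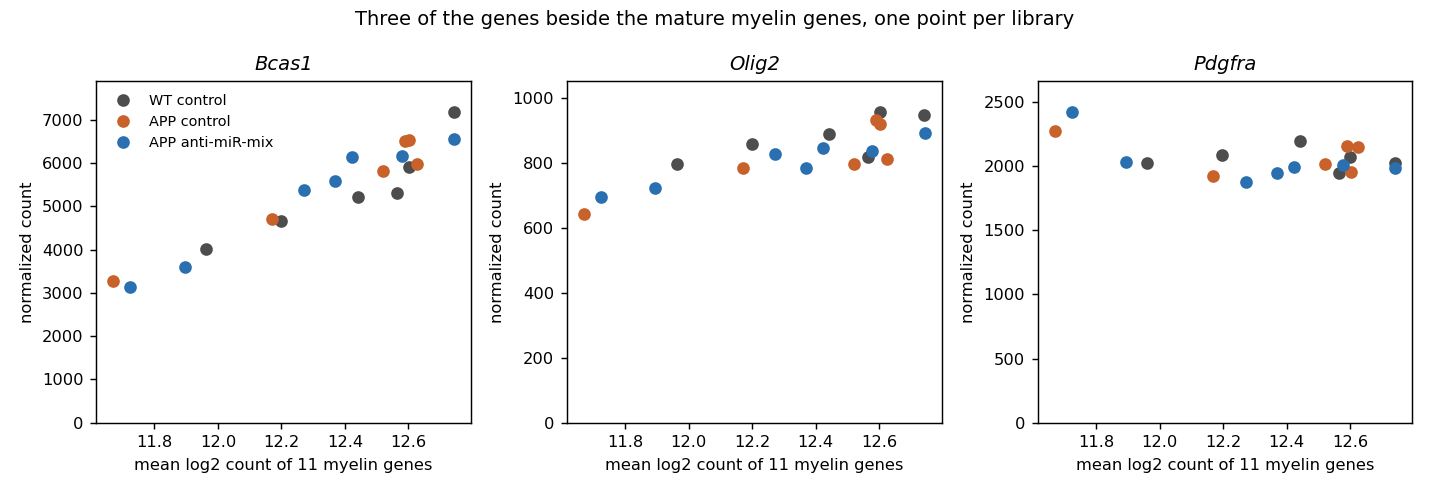
Normalized counts of Bcas1, Olig2 and Pdgfra against the mean log2 count of 11 mature myelin genes, with 1 point per library colored by group. Bcas1 and Olig2 climb with the myelin genes in all 3 groups, and Pdgfra lies between 1876 and 2196 except in APP control 5 (2275) and APP anti-miR-mix 7 (2418).

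The 10 other genes whose pattern over the libraries was most like the mean pattern of the genes (Pearson's r after removal of the group means, 19 libraries) were Ppp1r14a (0.96), Fgd3 (0.94), Plxnb3 (0.94), Prr18 (0.94), Pacs2 (0.94), Mag (0.94), Ttyh2 (0.93), Unc5b (0.93), Nkain1 (0.93) and Cnp (0.93). The mean pattern gave the 10 genes equal weight, and most of them (Bcas1, Enpp6, Olig1, Olig2, Sox10 and Gpr17) form the block above, with which Pdgfra was negative. Mag and Cnp, a myelin adhesion protein and a myelin phosphodiesterase, belong to the myelin list above. The other 9 myelin genes ranked between 12th (Mbp) and 904th (Aspa) among 19287 genes.

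Further genes of the same pathway were read from lists, with no member among them. Of 13 other precursor markers, none passed in either comparison that involved APP control, and in the combined comparison 1 fell. This was Tnr, which encodes the matrix protein tenascin-R and is also made by neurons. It had 6833 to 9886 normalized counts in WT control, 6629 to 7962 in APP control and 6021 to 7162 in APP anti-miR-mix, and fell by 0.27 on the log2 scale (SE 0.08, adjusted p 0.0178 in DESeq2, 0.0536 in edgeR). The call was lost when any 1 of WT control 4, WT control 6, APP anti-miR-mix 1 or APP anti-miR-mix 6 was left out, with an adjusted p from 0.0501 to 0.0822. The most abundant of the list, Ptprz1, differed by -0.10 (SE 0.09) in the amyloid comparison.

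Of 9 other markers of newly formed oligodendrocytes, none passed in the amyloid comparison or in the inhibitor comparison, and 3 rose in the combined comparison. Casr, the calcium-sensing receptor, had 2.24 to 8.83 normalized counts in WT control, 4.68 to 11.7 in APP control and 5.98 to 25.9 in APP anti-miR-mix. Its log2 fold change was 1.43 (SE 0.41, adjusted p 0.00856 in DESeq2, 0.0148 in edgeR), from few counts. It passed in the 26 of 29 alternatives that gave it an adjusted p. Bmp4, a bone morphogenetic protein made by newly formed cells, rose by 0.67 (SE 0.23, adjusted p 0.0394 in DESeq2) but passed in 16 of 29 alternatives. It was lost when any 1 of WT control 4, 5 or 6 or APP anti-miR-mix 1, 2, 4, 5 or 7 was left out, with an adjusted p from 0.0504 to 0.134. Itpr2, an intracellular calcium channel, rose by 0.19 (SE 0.07, adjusted p 0.0467 in DESeq2) but passed in 9 of 29. It was lost when any 1 of WT control 2, 3, 4 or 6, of the APP control libraries or of APP anti-miR-mix 1, 3, 4, 5 or 6 was left out, with an adjusted p from 0.0519 to 0.13. In edgeR the adjusted p was 0.08 for Bmp4 and 0.0662 for Itpr2. When DESeq2 took the adjustment number as a factor it was 0.148 for Bmp4 and 0.0882 for Itpr2. The median log2 fold change of the 9 genes was 0.19 in this comparison, beside -0.04 for the 4 committed and newly formed genes above.

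Of 12 growth factors and receptors of the lineage (platelet-derived, fibroblast and insulin-like growth factor signaling and Erbb3), Igf1 was the 1 that passed. Igf1, a growth factor for oligodendrocytes that microglia also make, had 211 to 354 normalized counts in WT control, 357 to 572 in APP control and 298 to 600.1 in APP anti-miR-mix. WT control and APP control did not overlap. It rose by 0.74 on the log2 scale (SE 0.17, adjusted p 0.00113 in DESeq2) in the amyloid comparison and by 0.85 (SE 0.17, adjusted p 2.4e-05) in the combined comparison, and passed in 29 of 29 alternatives in both. The summed amyloid-associated microglial markers given above moved with it between groups, and their part was not tested. In the inhibitor comparison no gene of the list passed, and Fgfr3 and Fgfr1, its most abundant genes, differed by 0.05 (SE 0.07) and -0.0065 (SE 0.07).

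None of 14 regulators of differentiation (among them Myrf, Zfp488, Nkx6-2, Id2, Id4, Hes5, Notch1 and Lingo1) passed in any comparison. Lingo1, an inhibitor of differentiation that neurons also express, differed by -0.19 (SE 0.09, adjusted p 0.253 in DESeq2) in the amyloid comparison, and Tcf4, the most abundant, by -0.09 (SE 0.08). Of 7 genes of cell division, Cdk1, the cyclin-dependent kinase of mitosis, rose in the amyloid comparison, by 1.23 (SE 0.36, adjusted p 0.0192 in DESeq2), and the other 6 did not pass. Its counts were low, from 5.71 to 38.3 in WT control and 18.7 to 63.7 in APP control, and the adjusted p was 0.0753 in edgeR and 0.056 when DESeq2 took the adjustment number as a factor. The call was lost when any 1 of WT control 2, 3, 5 or 6 or APP control 2 or 4 was left out, with an adjusted p from 0.0506 to 0.0894. In the combined comparison none of the 7 genes passed, and the log2 fold change of Cdk1 in edgeR was 0.97 (adjusted p 0.116). Dividing microglia and dividing precursors share these genes, and which cells held them was not measured. Of the other cell types, 5 of 7 microglial markers and 1 of 7 astrocyte markers (Gfap) rose and 2 of 8 neuronal markers (Gad1 and Gad2, the latter with an adjusted p of 0.0646 in edgeR) fell in the amyloid comparison, and none of these lists had a called gene in the inhibitor comparison.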

How the data were processed

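RNA of microdissected CA1 was sequenced as single-end reads of 50 nt (TruSeq RNA v2, polyA, HiSeq2000). The authors aligned reads to mm10 with STAR 2.5.2b and deposited raw counts per Ensembl gene from featureCounts (Subread 1.5.1). The annotation release and strand setting were not given in the sources used here. They also deposited a log2 table of 18825 genes. It equals log2(CPM + 1) minus 1 profile over genes multiplied by a whole number of 1 to 5 per library (largest residual 0.000749), which is called the adjustment number here, and was used in alternatives only.

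Groups and replicate numbers came from the sample titles. Raw counts of the 19297 genes that reached 5 counts in 50% of libraries or more were fitted in DESeq2 1.42.0 with 3 groups over all 19 libraries, the study's own tool, filter and threshold (Wald test, unshrunken fold changes, Benjamini-Hochberg adjustment over all genes, 0.05). Normalized counts are counts divided by DESeq2 size factors. Intervals are 95% Wald intervals, and mean ± SD is over libraries. Correlations used log2(normalized count + 1) with the group means removed and permutation within groups, two-sided. Alternatives were edgeR 4.0.16 (quasi-likelihood), TMM factors, other filters, 2-group fits, a replicate block, the adjustment number as a factor, limma 3.58.1 on the deposited table, the removal of WT control 5 with APP anti-miR-mix 6, and of each library in turn. The DESeq2 and edgeR fits of APP control against WT control were tested on simulated data, where the share of false calls was above the nominal level in DESeq2 and below it in edgeR. The other fits were not simulated. Symbols and 3′ UTRs came from GENCODE M21 (48349 identifiers matched) and microRNAs from RefSeq.

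The named genes are the 10 members in every comparison, each gene of the other lists that passed (at most 8 per list) or else the 2 most abundant, the 10 genes most alike, and Thy1 and App. Members and lists were chosen with earlier results of these data known. 9630013A20Rik, 1 of the listed markers, had no identifier in the files used here. Another myelin gene is not reported here and was left out of the myelin list.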

Additional observations from a re-analysis of the deposited data

Results flagged for a closer look

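The libraries of each group were compared for the 10 genes and the myelin mean, and a library counted as far from the rest when its gap to the nearest other library, as a share of the range of its group, passed Dixon's 95% value. Of 33 groups examined 2 held such a library, where chance gives about 1 in 20, or 1.65. Pdgfra was 2418 normalized counts in APP anti-miR-mix 7 and between 1876 and 2032 in the other 6 libraries of that group. Gpr17 was 1026 normalized counts in APP control 5 and between 1494 and 1735 in the other 5. Both libraries were also the lowest of their group for the summed myelin genes.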

How the results depend on the processing

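Under 29 alternatives the count of the 10 genes called stayed at 0 in the amyloid comparison and in the inhibitor comparison, also when each library in turn was left out (0 to 0). In the combined comparison it was 0 in 28 and 1 (Vcan, log2 fold change -0.19, adjusted p 0.0499) when the DESeq2 fit took the adjustment number as a factor. The cause was not tested. The log2 fold change changed sign in 31, 20 and 13 of 290 values in the order of the comparisons, and the most any value moved was 0.17 (Enpp6, without APP control 5). Across all genes, leaving out 1 library gave 666 to 1209 calls in the amyloid comparison (main count 908) and 1169 to 2012 in the combined comparison (main count 1727), and edgeR with the adjustment number as a factor, an alternative chosen after seeing the data, gave 600.0 in the first. In the inhibitor comparison the count of 0 became 3 with only the 2 groups compared (Fn1, Nptx2 and Gm35021), 1 with the replicate block (Fn1) and 0 to 3 without 1 library, with 3 without WT control 4 (Fn1, Nptx2 and Gm35021) or APP control 6 (Mab21l1, Rpe65 and Hdac9). These genes are named after their values were seen. With TMM values 17 pairs passed again, and with any protein-coding transcript the count of genes with a seed match stayed at 7.

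The groups share replicate numbers, and same-numbered libraries were compared by the correlation of their deviations from the group means over 5000 genes. In 18 pairs it ran from -0.09 to 0.788 with a median of 0.40, and 14 were above 0.1, so not every pair was. In the 102 pairs of libraries with different numbers the median was -0.05. Of 18 libraries, 7 correlated best with a library of their own number. With the replicate block 1222 and 2202 genes were called in the amyloid and combined comparisons, beside 908 and 1727 in the main fit, which had no block. None of the 10 genes was called with the block in any comparison. Of the genes of the other lists called in the combined comparison, Bmp4 (adjusted p 0.0718), Anpep (0.0543) and Igf2 (0.0546) were not called with the block, and Casr was given no adjusted p.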

Other observations

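Some of the 10 genes were also read against the adjustment number of the deposited table, which is not a group of the study. The numbers 1 to 5 were held by 3, 5, 5, 5 and 1 libraries, so each value for number 5 is that of WT control 6 alone. The deviation of Cspg4 from its group mean on the log2 scale was 0.11, 0.09, -0.06, -0.09 and -0.04 in libraries with the numbers 1 to 5, and that of Pdgfra -0.05, -0.03, -0.02, 0.07 and 0.10. The SD of Cspg4 within groups was 0.12 without and 0.09 with this number as a term, while that of Bcas1 was 0.37 and 0.40 and that of Enpp6 0.52 and 0.57. With this term the SD was lower for 5 of the 10 genes (Pdgfra, Cspg4, Vcan, Gpr17 and Neu4) and higher for the other 5. These are values with no test.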
